A study of Mus musculus with 2 samples.

Results

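The genes described here are the inhibitors of differentiation Id1, Id2, Id3 and Id4 and the Hairy and enhancer of split repressors Hes1 and Hes5, 6 of the 17592 genes of the deposited table. They belong together as repressors of differentiation, the rule that names them uses no measured value, and all 6 had enough reads to be described. The tissue was the dentate gyrus of C57BL/6 mice, where granule neurons are born throughout life, and transcripts were counted cell by cell. There was 1 library from mice labelled old, aged 16 months, and 1 from mice labelled young, aged 3 months. The labels name no treatment or allele for either group, and how many animals stand behind a library is not given in the sources used here. Cells had been freed with papain, sorted as alive because they excluded propidium iodide, and counted with unique molecular identifiers (UMIs, a tag for each captured transcript) read at the 3' end.

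Id and Hes proteins hold back differentiation by different routes. Id proteins carry a helix-loop-helix domain without the basic region that touches DNA, so they pair with E proteins such as Tcf4 and keep them from proneural partners. Their genes are classical targets of bone morphogenetic protein (BMP) receptors and SMAD factors. Hes proteins bind DNA, recruit Groucho corepressors and silence proneural genes, and Hes1 and Hes5 are classical targets of Notch receptors through the factor RBPJ. In the adult hippocampus both families are known from quiescent neural stem cells and astrocytes, and Id1 and Id3 also from growing blood vessels.

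The gene bodies lie apart in the mouse genome (GENCODE M21 on GRCm38). Id1 is at chr2:152736251-152737410 and Id3 at chr4:136143497-136145755, both on the plus strand, and Id2 is at chr12:25093799-25097140 on the minus strand. Id4 is at chr13:48261228-48266026, Hes1 at chr16:30064384-30067796 and Hes5 at chr4:154960923-154962371, all on the plus strand. No 31-base stretch of the last 500 bases of their transcripts occurred in the last 500 bases of another gene's annotated transcripts. No near-identical 3' end was thus found, and the rest of other transcripts was not searched. Id4 is overlapped on the other strand by A330033J07Rik and Gm49291, and Hes5 by Gm20421. Whether counting used the strand is not given in the sources used here. Of these neighbours only Gm49291 has a column, with 1 UMI in each library outside the low-mitochondrial clusters.

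The promoters of Hes5 and Id4 are shown because these genes led in different glial classes and because the Notch and BMP routes described above end at such sequences. Both windows are the 250 bases before the start of the RefSeq transcript (GRCm38.p6), chr4:154960673-154960922 for Hes5 and chr13:48260866-48261115 for Id4, plus strand. Capitals mark GTGGGAA, the core that RBPJ binds, on either strand in Hes5, and GGCGCC, a GC-rich SMAD core, in Id4.
Hes5: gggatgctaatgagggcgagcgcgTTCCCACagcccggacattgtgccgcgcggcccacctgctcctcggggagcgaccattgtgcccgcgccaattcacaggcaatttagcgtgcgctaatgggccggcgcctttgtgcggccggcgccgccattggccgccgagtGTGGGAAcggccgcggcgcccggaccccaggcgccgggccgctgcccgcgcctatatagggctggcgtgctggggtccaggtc
Id4: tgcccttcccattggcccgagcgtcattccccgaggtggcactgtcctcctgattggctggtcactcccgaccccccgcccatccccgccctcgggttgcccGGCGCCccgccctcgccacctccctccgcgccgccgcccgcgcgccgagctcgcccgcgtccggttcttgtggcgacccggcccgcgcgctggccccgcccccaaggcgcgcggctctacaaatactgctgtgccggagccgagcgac
Hes5 held GTGGGAA at 2 places, starting 226 and 83 bases before the transcript start. Of 32851 mouse windows of this length, 5.42% held GTGGGAA on either strand at least once and 0.161% held it 2 or more times. GGCGCC was found once in Id4, 4 times in Hes5 and in 9.59% of all windows. None of the matches in one window overlapped a match of the other motif. Windows of Id2 and Id3 were also in the table, and neither these nor that of Id4 held GTGGGAA. The Id2 window held GGCGCC once, 231 bases before the start, and the Id3 window did not hold it. A match says only that these letters are present.

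Cells were grouped by clustering and called after a class only where at least 3 markers of that class stood out. Of 10 markers each, 10 marked the astrocyte-like, microglia-like, endothelial cell-like and mature oligodendrocyte-like cells and 8 the neuroblast or immature granule neuron-like cells (called neuroblast-like from here on). All 8 markers held in the oligodendrocyte precursor-like (OPC-like) and in the pericyte-like cells. In the young library these 7 classes held 304 astrocyte-like, 48 OPC-like, 58 neuroblast-like, 79 mature oligodendrocyte-like, 387 microglia-like, 129 endothelial cell-like and 70 pericyte-like cells. The old library had 1430 cells and 7451506 UMIs, and the young library 2463 cells and 16217559 UMIs. Of the old barcodes 1401 (98%) were also in the young library, and all 1113 of these that lay outside the low-mitochondrial clusters in both were in the same class in both. Clusters of a low mitochondrial share (median under 1%) held 289 old cells (20.2%) and 1315 young cells (53.4%) and were given no class. Levels below are therefore from the young library unless stated, as UMIs per 10,000 UMIs of the class. Intervals are 95%, exact, and cover counting error only. With 1 library there is no replicate and no test between classes or ages.

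Each of the 6 genes had its own order of classes, and mature oligodendrocyte-like cells were at the bottom or next to it for all but Id4. A class was called above or below when its level was at least 2-fold from the mean of the other 6 classes, after adding 0.1 to both. Of 42 pairs of gene and class, 8 (19%) were above, where 8.24% of all gene and class pairs were above over 10402 genes tested. Another 24 (57.1%) were below, where the share over all genes was 21.1%. The 8 pairs were Id1 and Id3 in endothelial cell-like cells, Id2, Id4 and Hes5 in astrocyte-like cells, Id2 in neuroblast-like cells, Hes1 in pericyte-like cells and Hes5 in OPC-like cells. Microglia-like cells were above for none and below for Id1, Id3, Id4 and Hes5, where 9.59% of all genes were above and 27.9% below in that class. Mature oligodendrocyte-like cells were also above for none, where 6.41% of all genes were above. The median fold of the 6 genes was 2.19 in astrocyte-like cells and 0.0486 in mature oligodendrocyte-like cells, against 0.905 and 0.729 over all genes. Only Id1 and Id3 in endothelial cell-like and Id4 in astrocyte-like cells stood at least 2-fold above every other class.

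**Figure D1:**
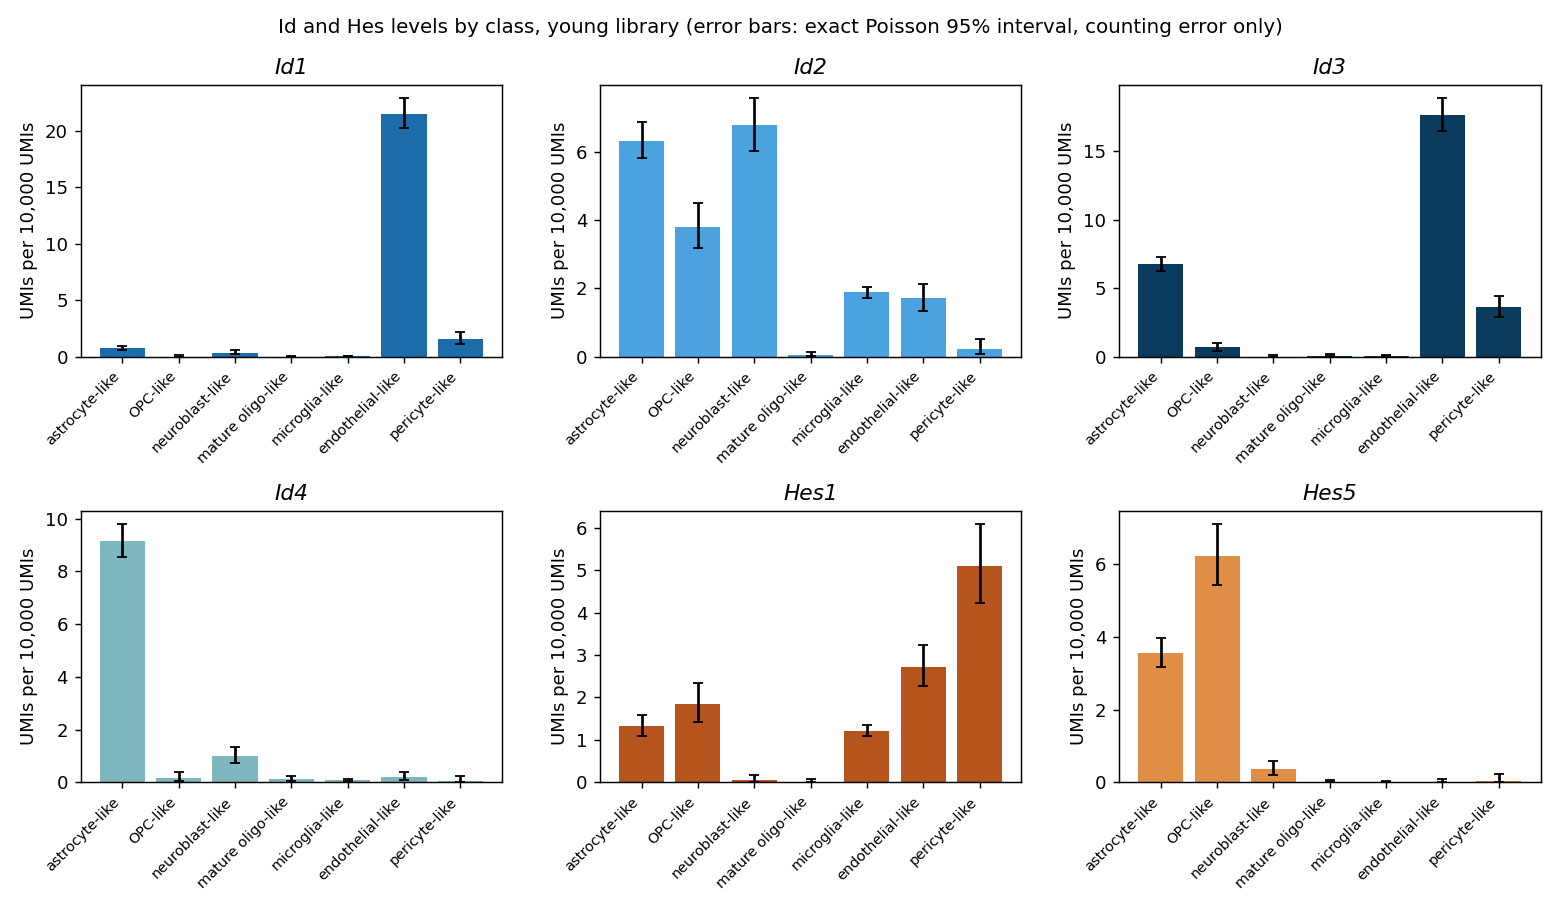
Level of each gene (UMIs per 10,000 UMIs, linear axis with its own scale in each panel) in 7 classes of the young library; bars are the pooled level of a class and error bars its exact Poisson 95% interval. Id1 stands at 21.6 in endothelial cell-like cells and Id4 at 9.16 in astrocyte-like cells, while Hes1 is spread over 5 classes.

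Id1, a direct target of BMP signalling in endothelium, was mainly endothelial here. It reached 21.6 UMIs per 10,000 (20.2 to 22.9) in endothelial cell-like cells, from 989 UMIs in 129 cells, against 1.54 (1.08 to 2.13) in pericyte-like cells. Astrocyte-like cells had 0.752 (0.584 to 0.953), neuroblast-like cells 0.336 (0.188 to 0.554) and microglia-like cells 0.0133 (0.00363 to 0.0341). The endothelial cell-like level was 14.0-fold that of the pericyte-like cells, and the intervals of neighbours in the order were apart down to the microglia-like cells. For the neuroblast-like cells this rests on 3 of 58 cells, which held 13 of 15 Id1 UMIs; without them the level was 0.0491 (0.00594 to 0.177), which overlapped that of the microglia-like cells. No Id1 UMI was seen in 79 mature oligodendrocyte-like or 48 OPC-like cells of the young library, which by counting error alone allows levels of up to 0.0421 and 0.0851. In the old library OPC-like cells had 4 Id1 UMIs in 3 of 43 cells, a level of 0.121 (0.0330 to 0.310), above that limit but with an interval that includes it. Among the 14 smooth muscle-like cells, too few for the comparison, Id1 stood at 3.34 (2.27 to 4.74).

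Id3, the nearest relative of Id1 by pattern here, was also led by the vessel wall but reached further into glia. Endothelial cell-like cells had 17.6 (16.4 to 18.9), astrocyte-like cells 6.74 (6.22 to 7.30) and pericyte-like cells 3.60 (2.87 to 4.45). OPC-like cells had 0.681 (0.436 to 1.01). All these intervals were apart. Microglia-like and mature oligodendrocyte-like cells, at 0.0733 and 0.0702, could not be told apart, and none of 58 neuroblast-like cells had an Id3 UMI, which by counting error alone allows a level of up to 0.0672. In the old library these cells had 4 Id3 UMIs in 4 of 56 cells, a level of 0.0891 (0.0243 to 0.228), above that limit but with an interval that includes it. Smooth muscle-like cells, with 151 UMIs in 14 cells, had 16.3 (13.8 to 19.1), an interval that overlapped that of the endothelial cell-like cells. In astrocyte-like cells Id3 was uneven: 137 of 304 cells held its 610 UMIs, and 1 cell held 55 of them.

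Id2, an Id protein known to delay oligodendrocyte differentiation and to be present in many neurons, was present in 5 of the 7 classes at 1.70 or more. Neuroblast-like cells had 6.77 (6.03 to 7.58) and astrocyte-like cells 6.32 (5.81 to 6.86), which overlapped. OPC-like cells followed with 3.80 (3.18 to 4.50). Microglia-like cells with 1.88 (1.72 to 2.04) and endothelial cell-like cells with 1.70 (1.34 to 2.12) overlapped each other and stood apart from the OPC-like cells. Pericyte-like cells had 0.214 (0.0695 to 0.50) and mature oligodendrocyte-like cells 0.0562 (0.0153 to 0.144). From OPC-like to mature oligodendrocyte-like cells, 2 stages of the same lineage, the Id2 counts were 134 UMIs in 48 cells and 4 UMIs in 79 cells. In microglia-like cells Id2 was held by few cells, with 563 UMIs in 136 of 387 cells and as many as 48 in 1 cell.

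Id4, known in the adult hippocampus for keeping neural stem cells quiescent, was astroglial. It stood at 9.16 (8.55 to 9.81) in astrocyte-like cells, against 1.01 (0.736 to 1.35) in neuroblast-like cells, a 9.09-fold difference with intervals apart. The other 5 classes lay between 0.0428 and 0.196, and neighbours among them overlapped. In droplet data free RNA adds UMIs to every cell, so these traces were set beside the markers of the leading class. Microglia-like cells had 0.836% of the astrocyte-like Id4 level and 1.63% of the summed level of the 10 astrocyte markers. For OPC-like cells these values were 1.86% and 7.32%, for endothelial cell-like cells 2.14% and 2.56%, for pericyte-like cells 0.467% and 4.52%, and for mature oligodendrocyte-like cells 1.23% and 1.31%. In each of these 5 classes the Id4 percentage was below that of the astrocyte markers, so no expression of Id4 is read from it. Low-mitochondrial cells held 78.5% of the young library's Id4 UMIs, and the source of the traces was not tested. Neuroblast-like cells had 11% of the astrocyte-like Id4 level and 4.50% of the marker level.

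Hes1 was spread over 5 of the 7 classes. Pericyte-like cells had 5.10 (4.22 to 6.10), apart from the 2.72 (2.27 to 3.25) of endothelial cell-like cells. OPC-like cells with 1.84 (1.42 to 2.35), astrocyte-like cells with 1.33 (1.10 to 1.59) and microglia-like cells with 1.21 (1.09 to 1.34) followed, and each neighbour in this order overlapped the next, from endothelial cell-like downward. Neuroblast-like cells had 0.0448 (0.00543 to 0.162) from 2 UMIs, and mature oligodendrocyte-like cells 0.0140 (0.000356 to 0.0782) from 1 UMI. In microglia-like cells Hes1 was 23.7% of the pericyte-like level, while the 8 pericyte markers were at 0.0413% of theirs. Pericyte-like cells held only 15.0% of the Hes1 UMIs of the 7 classes and low-mitochondrial cells 75.3% of those of the young library, so these markers do not measure free Hes1 RNA, whose part was not tested. Smooth muscle-like cells, the other mural cells, had 1.08 (0.516 to 1.98), apart from the pericyte-like cells.

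Hes5 was found in fewer classes than Hes1. OPC-like cells had 6.24 (5.44 to 7.12), astrocyte-like cells 3.55 (3.17 to 3.96) and neuroblast-like cells 0.358 (0.205 to 0.582), all apart. Of the 16 Hes5 UMIs of the neuroblast-like cells 14 were in 3 of 58 cells, and the level without these was 0.0491 (0.00594 to 0.177). Pericyte-like and microglia-like cells had 0.0428 and 0.0167. Endothelial cell-like and mature oligodendrocyte-like cells had 0 UMIs, which allows levels of up to 0.0654 and 0.0421. Both Hes genes were thus found in OPC-like and astrocyte-like cells, and Hes1 without more than traces of Hes5 in vascular and microglia-like cells. The traces in pericyte-like cells were 0.686% of the OPC-like level, where the 8 OPC markers, among them Cspg4, which mural cells also express, were at 8.30%. In microglia-like cells Hes5 was 0.267% of the OPC-like level and the markers 0.117%. The source of these traces was not tested.

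Shares of cells with a UMI were set side by side at 1 common depth. Median depth ranged from 1912 to 9609 UMIs per cell between the 7 classes, so each cell was thinned to 1000 UMIs and shallower cells were left out, which kept 263 of 304 astrocyte-like cells and nearly all cells of the other classes. Id1 was then found in 81.3% (73.3 to 87.8) of endothelial cell-like cells, Id3 in 71.5% (62.7 to 79.3) of the same class, and Id4 in 50.2% (44.0 to 56.4) of astrocyte-like cells. Id2 was found in 45.6% (32.4 to 59.3) of neuroblast-like and 40.7% (34.7 to 46.9) of astrocyte-like cells. Hes1 in pericyte-like cells was at 33.8% (22.8 to 46.3) and Hes5 in OPC-like cells at 34.0% (20.9 to 49.3). Without thinning these shares were 92.2%, 90.7%, 69.4%, 72.4%, 57.6%, 65.7% and 64.6% in the same order. The thinned share of Id4 was 0.262% in microglia-like cells, which should lack it and have a median of 7819 UMIs, against a median of 1912 UMIs in astrocyte-like cells.

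**Figure D2:**
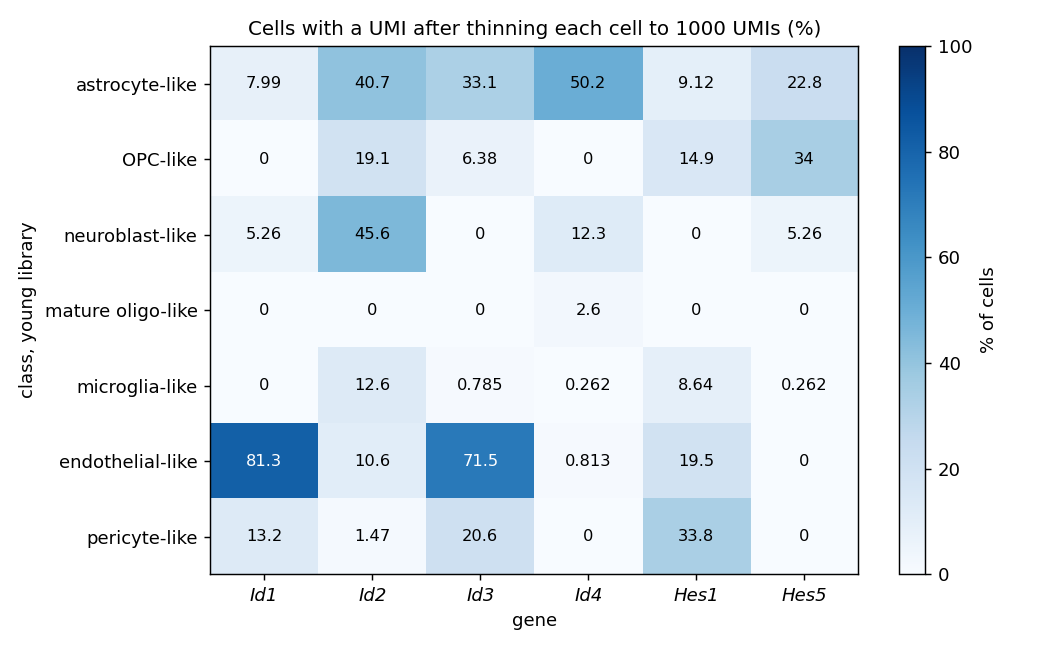
Share of cells with at least 1 UMI (percent, colour and number) for each gene (columns) and class (rows) in the young library after thinning every cell to 1000 UMIs. The highest shares are 81.3% for Id1 and 71.5% for Id3 in endothelial cell-like cells, and the mature oligodendrocyte-like row is at 0 for 5 of the 6 genes.

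With all UMIs counted, most cells of every class but the mature oligodendrocyte-like held at least 1 of the 6 genes. The share was 96.9% of endothelial cell-like, 89.6% of OPC-like, 88.2% of astrocyte-like, 82.8% of neuroblast-like and 81.4% of pericyte-like cells. The share was 56.6% in microglia-like cells and 12.7% in mature oligodendrocyte-like cells. Cells with 3 or more of the genes made up 64.3% of endothelial cell-like and 47.4% of astrocyte-like cells and 5.17% of neuroblast-like cells. All 6 genes were called below in mature oligodendrocyte-like cells, where 27.1% of all genes were below.

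Detected together in the same thinned cell, the genes met about as often as their separate shares give. Id1 and Id3 were both found in 60.2% (50.9 to 68.9) of endothelial cell-like cells, beside a product of their shares of 58.2%. In astrocyte-like cells Id2 with Id4 were in 21.7% (16.8 to 27.1; product 20.4%) and Id3 with Id4 in 19.8% (15.1 to 25.1; product 16.6%). Id2 with Id3 were in 18.6% (14.1 to 23.9), and here the product of 13.5% lay below the interval. Hes1 with Hes5 were in 8.51% (2.37 to 20.4) of OPC-like cells, from 4 of 47 cells, beside a product of 5.07%. Id and Hes genes met in the same astrocyte-like cells too: Id4 with Hes5 were in 12.5% (8.80 to 17.2; product 11.5%).

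Across the 9 clusters outside the low-mitochondrial ones with at least 20 young cells, Id1 was nearest to Id3 and Id2 nearest to Id4. Pearson's r of log2 levels was 0.75 for Id1 with Id3, 0.70 for Id3 with Hes1, 0.72 for Id2 with Id4, 0.71 for Id2 with Hes5 and 0.64 for Id4 with Hes5. It was 0.17 for Hes1 with Hes5. Of 8163 genes, those most like Id4 were Sox9 (0.985), a glial transcription factor, Mlc1 (0.970), an astrocyte end-foot membrane protein, and Csdc2 (0.965). Those most like Hes5 were Arpp21 (0.987), Fabp7 (0.978), a fatty acid binding protein of radial glia, and Agpat5 (0.978). For Id1 they were Ablim1 (0.956), Tmem160 (0.916) and Lef1 (0.916), a Wnt effector present in brain endothelium, and for Id3 Gm42418 (0.960), Sike1 (0.947) and AY036118 (0.939), of which Gm42418 and AY036118 are known to collect reads of ribosomal RNA. For Id2 they were Pcgf5 (0.921), Pank1 (0.916) and Tom1l1 (0.891), and for Hes1 Erap1 (0.922), Tap2 (0.919) and Ltbr (0.919). These values describe 9 clusters that share 1 library and its free RNA and differ in depth, and with so few points high values arise easily.

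The receptors, ligands and other targets of the Notch and BMP routes were described in the same cells, from lists of the whole pathways. Endothelial cell-like cells, which led in Id1 and Id3, were above for 3 of 8 BMP receptors (8.03% of all genes were above in this class): Acvrl1, the endothelial type I receptor, at 6.69 UMIs per 10,000 (32.3-fold the other classes), its coreceptor Eng at 6.67 (12.3-fold) and the type II receptor Bmpr2 at 3.40 (4.50-fold). Bmpr1a and Bmpr1b were below there, and the median fold of the 8 receptors was 1.27, against 0.845 over all genes. Bambi, a decoy receptor, was above at 0.458 (2.75-fold). Astrocyte-like cells, which led in Id4, were above for 1 of 8 receptors (all genes 9.84%), the type I receptor Bmpr1b at 1.15 (9.54-fold), and below for Acvrl1, Eng and Bmpr2. The ligand Bmp4 was above in pericyte-like cells (1.5, 5.88-fold) and OPC-like cells (1.02, 3.19-fold), and of 8 BMP ligands listed only Bmp4 and Gdf11 had enough UMIs to be compared. Of 3 BMP antagonists tested, 2 were above in pericyte-like cells (all genes 6.68%): the secreted Nbl1 at 9.64 (37.6-fold) and Twsg1 at 0.600 (2.57-fold). Of the 4 SMADs tested, the shared factor Smad4 was above in neuroblast-like cells at 1.5 (2.19-fold), where 8.81% of all genes were above. None was above in endothelial cell-like or astrocyte-like cells, and Smad7 was above in microglia-like and mature oligodendrocyte-like cells (all genes 9.59% and 6.41%). When 1 instead of 0.1 was added to the levels, Bambi (1.32-fold), Twsg1 (1.36-fold), Smad4 (1.53-fold) and Bmp4 in OPC-like cells (1.61-fold) were no longer above.

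Along the Notch route, pericyte-like cells, which led in Hes1, were above for 2 of 4 receptors (all genes 6.68%): Notch3, the mural receptor, at 6.72 (61.4-fold) and Notch1 at 4.11 (3.42-fold). The median fold of the 4 receptors was 2.42, against 0.861 over all genes. The Hey repressors Heyl at 2.66 (22.8-fold) and Hey2 at 1.54 (9.38-fold) and the Notch feedback gene Nrarp at 0.856 (2.63-fold) were above in the same cells. Endothelial cell-like cells were above for 3 of the 4 ligands tested (all genes 8.03%), Jag2 at 2.38 (18.4-fold), Dll4 at 1.05 (10.3-fold) and Jag1 at 0.959 (2.84-fold). Jag1 was also above in pericyte-like cells, at 0.985 (2.94-fold). Notch4 at 0.807 (5.58-fold) and Hey1 at 1.18 (4.92-fold) were above in endothelial cell-like cells too. Astrocyte-like cells were above for Notch2 at 1.43 (4.41-fold), Lfng, a glycosyltransferase that tunes Notch, at 1.30 (4.53-fold) and Nrarp at 0.696 (2.04-fold). OPC-like cells, which led in Hes5, were above for no receptor and below for Notch2, Notch3 and Notch4 (all genes below 13%); Notch1 passed neither limit, and the ligand-like protein Dner was above at 2.04 (6.99-fold). All 4 receptors were below in mature oligodendrocyte-like cells and in neuroblast-like cells, the classes with the least Hes1 (all genes below 27.1% and 21.1%). Their median fold was 0.177 and 0.436 in these classes, against 0.729 and 0.949 over all genes. Microglia-like cells were also below for Notch1, Notch3 and Notch4 (all genes below 27.9%), with a median fold of 0.299 against 0.726. Their Hes1 level was 1.21 UMIs per 10,000, against 0.0448 in neuroblast-like cells. With 1 added to the levels, Notch2 (1.95-fold), Lfng (1.90-fold) and Nrarp (1.32-fold) were no longer above in astrocyte-like cells. Nor were Hey1 (1.88-fold), Notch4 (1.70-fold) and Jag1 (1.54-fold) in endothelial cell-like cells, or Jag1 (1.56-fold) and Nrarp (1.47-fold) in pericyte-like cells.

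**Figure D3:**
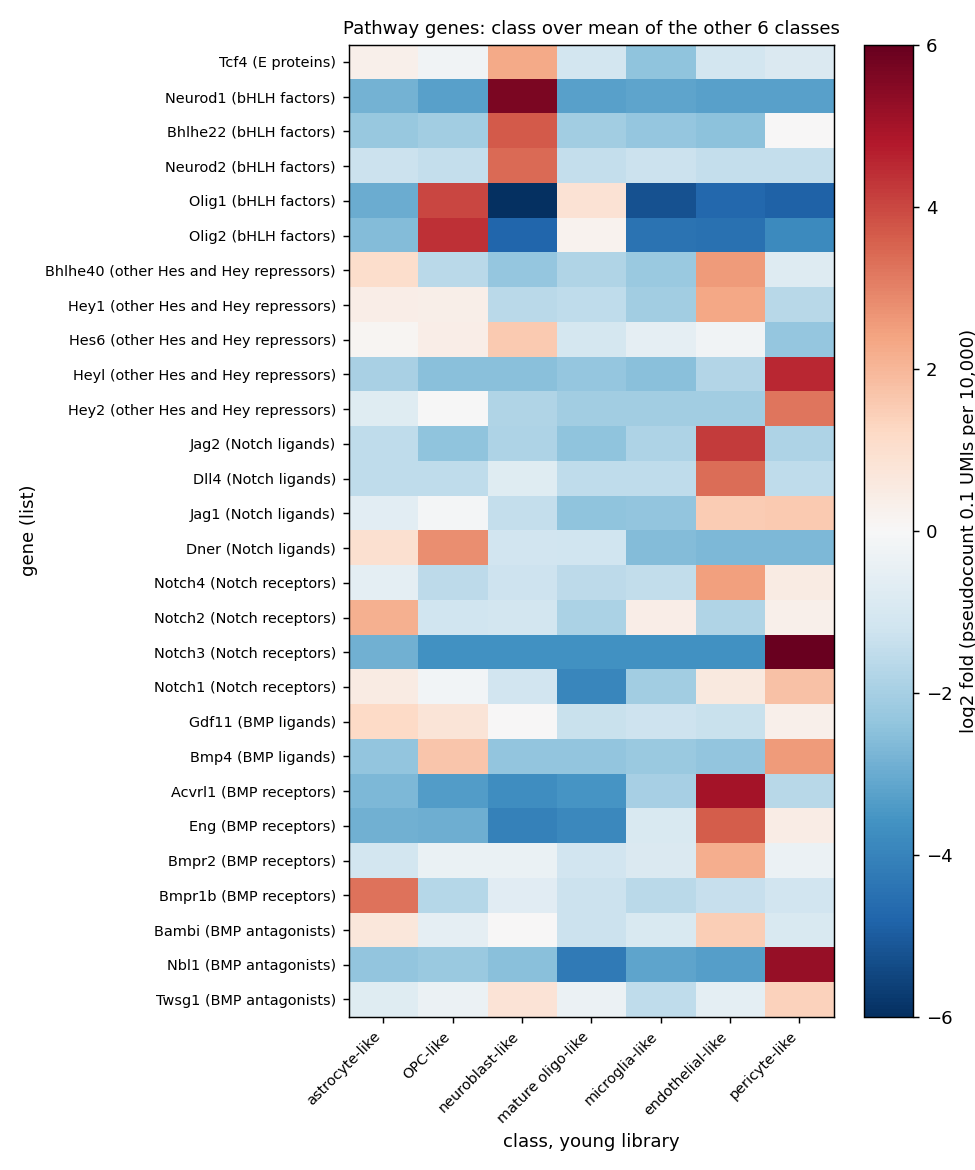
Log2 fold of each class over the mean of the other 6 classes (colour, red above and blue below) for E proteins, other bHLH factors and Notch and BMP pathway genes (rows, list in brackets) in the young library. Rows are listed genes at least 2-fold above in a class that leads for an Id or Hes gene; Acvrl1 and Eng stand out in endothelial cell-like cells and Notch3, Heyl and Nbl1 in pericyte-like cells.

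Genes for E proteins, for other helix-loop-helix factors and for corepressors had patterns of their own. Of the 3 E proteins, Tcf4 was above in neuroblast-like cells (all genes 8.81%) at 43.2 UMIs per 10,000 (4.81-fold), the class that also led in Id2. The helix-loop-helix genes Neurod1 at 5.18 (49.5-fold), Bhlhe22 at 2.20 (13-fold) and Neurod2 at 1.01 (10.7-fold) were above there too. Hes6, a Hes relative known to oppose Hes1, was above there at 0.919 (2.97-fold). OPC-like cells (all genes 8.3%) were above for Olig1 at 33.8 (15.9-fold) and Olig2 at 12.5 (21.2-fold), in the class where Hes5 was highest. Of 5 Groucho corepressors tested, Tle4 was above in astrocyte-like cells (all genes 9.84%) at 1.65 (3.23-fold) and Tle2 in OPC-like cells at 0.681 (3.57-fold). Bhlhe40, a related repressor, was above in endothelial cell-like cells at 1.42 (5.83-fold) and in astrocyte-like cells at 0.685 (2.05-fold). With 1 added to the levels, Hes6 (1.54-fold), Tle4 (1.84-fold), Tle2 (1.5-fold) and Bhlhe40 in astrocyte-like cells (1.31-fold) were no longer above.

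Within astrocyte-like cells Id2, Id3 and Id4 were higher in the cluster with more Hopx, a gene of dentate neural stem cells and of astrocytes. The 24 cells of astrocyte-like cluster 12 had 24.2 UMIs per 10,000 of Hopx (20.6 to 28.2), against 10.2 (9.51 to 10.9) in the 280 cells of cluster 2. Id2 was at 11.9 (9.42 to 14.8) against 5.87 (5.37 to 6.42), Id3 at 14.1 (11.4 to 17.3) against 6.15 (5.63 to 6.70), and Id4 at 13.4 (10.8 to 16.4) against 8.82 (8.20 to 9.48), all with intervals apart. For Hes5 the values of 4.75 (3.25 to 6.71) and 3.45 (3.06 to 3.87) overlapped, as did those of Hes1 (1.19 and 1.34) and Id1 (0.594 and 0.764). These clusters were made from the same expression values, so the differences are a description. At a finer resolution most astrocyte-like cells fell into a cluster of 102 cells with a median of 4961.5 UMIs and another of 174 cells with a median of 1234.5 UMIs, and Id2, Id3, Id4, Hes1 and Hes5 were higher in the deeper cells, Id4 at 10.1 against 6.77 and Hes5 at 4.38 against 1.81. The median mitochondrial share of UMIs was 10.6% in the deeper and 3.91% in the other cluster. The part of depth and of this share was not tested.

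Endothelial cell-like cells divided at the finer resolution into clusters of 37 and 92 cells. The arterial gene Bmx was at 1.42 in the cluster of 37 cells, where 24.3% of cells had a UMI of it, against 0.0330 in the other, and the venous and capillary gene Slc38a5 at 0 UMIs against a level of 3.40. The capillary gene Mfsd2a did not separate the clusters, at 4.06 (3.12 to 5.19) and 4.12 (3.43 to 4.91). Id1 was at 26.0 (23.5 to 28.7) in the cluster of 37 cells against 19.3 (17.8 to 20.9) in the others, and Id3 at 20.6 (18.4 to 23.0) against 16.1 (14.7 to 17.6). All finer clusters were made from the same expression values, the 6 genes included, so their differences are a description. Id1 was itself among the genes that stood out most in the cluster of 37 cells. Hes1 was at 2.70 (1.95 to 3.65) and 2.74 (2.18 to 3.39), which overlapped, whereas the Notch target Hey1 was at 3.03 (2.22 to 4.02) and 0.231 (0.0928 to 0.475). The finer microglia-like clusters differed in the immediate early gene Fos (54.7 against 33.5), while their Hes1 intervals overlapped, at 1.14 (0.995 to 1.30) in the 240 cells with more Fos and 1.36 (1.14 to 1.60) in the other 151.

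Neuroblast-like cells held the genes in different cells. Among the 38 cells with a UMI of Dcx, the microtubule protein of migrating neuroblasts, Id2 was at 7.82 (6.92 to 8.81) and in 84.2% of cells, against 3.11 (2.11 to 4.41) and 50.0% in the 20 cells without Dcx. Neither Hes1 nor Hes5 had a UMI in the cells with Dcx, which had a median of 9222 UMIs against 3740 in those without. Hes5 in the cells without Dcx was at 1.60 (0.917 to 2.61) and Id1 at 1.30 (0.694 to 2.23). Most of these UMIs were in 3 cells with at least 5 Hopx UMIs, a limit set after the values were seen. The 3 cells held 13 of the 15 Id1 UMIs and 14 of the 16 Hes5 UMIs of the class. They also held 17 of 29 UMIs of Top2a, a gene of dividing cells, at 0, 3 and 14 in the 3 cells. None of the 45 Id4, 207 Dcx or 231 Neurod1 UMIs was in them. Id1 was at 1, 4 and 8 UMIs and Hes5 at 3, 4 and 7 UMIs in the 3 cells, and 1 of the 3 barcodes was also in the old library. At the finer resolution Id4 was highest in a sub-cluster of 9 cells that carried markers of Cajal-Retzius cells, neurons of the outer layer that make reelin, with 3.87 (2.16 to 6.38) from 15 UMIs. The other 49 cells held more Id4 UMIs, 30, at a lower level of 0.736 (0.497 to 1.05), and the cells with Dcx held 22. Id2 was lower in the Cajal-Retzius-like cells, at 1.80 (0.725 to 3.72) against 7.24 (6.44 to 8.11).

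**Figure D4:**
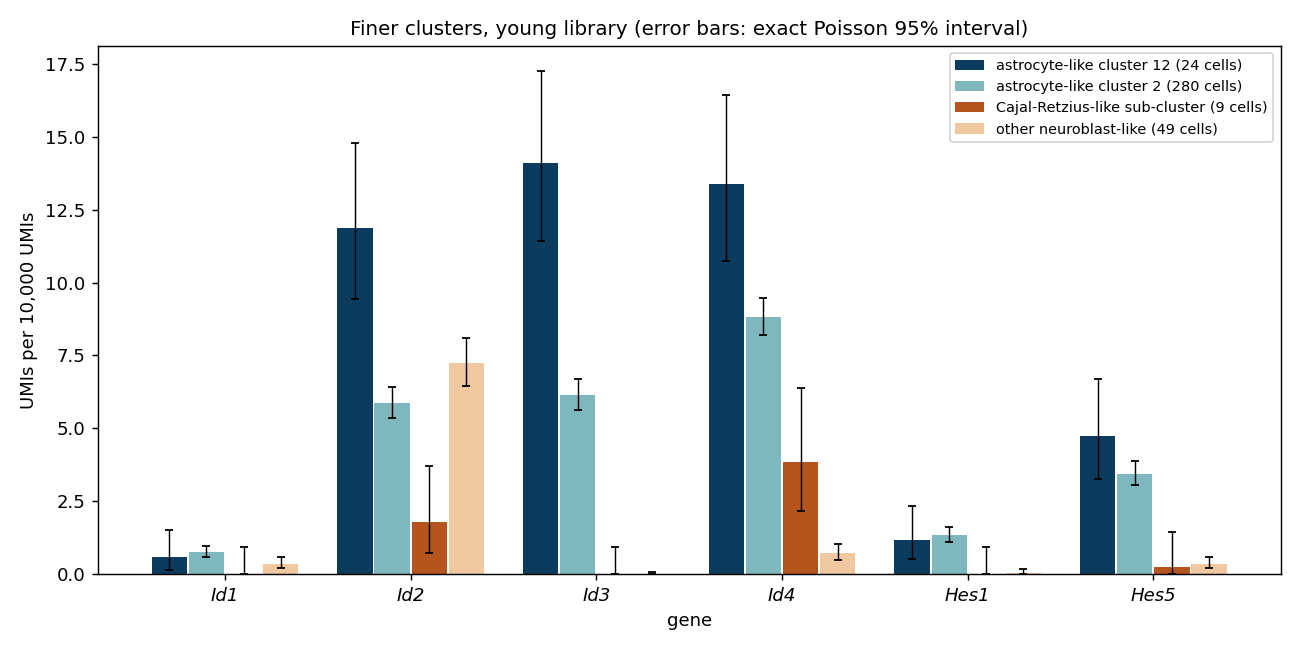
Level of each gene (UMIs per 10,000 UMIs) in 2 astrocyte-like clusters and in 2 sub-clusters of the neuroblast-like cells, young library; error bars are exact Poisson 95% intervals. Id2, Id3 and Id4 are higher in the 24 cells of cluster 12 than in the 280 cells of cluster 2, and Id4 is higher and Id2 lower in the 9 Cajal-Retzius-like cells than in the other 49.

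The labelled ages can be compared only as 2 tables of mostly the same cells, and neither a change with age nor its absence can be read from them. In its leading class each gene had nearly the same level in both libraries. Id1 in endothelial cell-like cells was at 20.5 (19.3 to 21.8) in the old and 21.6 (20.2 to 22.9) in the young library, Id3 at 17.6 in both, Id2 in neuroblast-like cells at 7.30 and 6.77, and Id4 in astrocyte-like cells at 9.09 and 9.16. Hes5 in OPC-like cells was at 6.14 in the old and 6.24 in the young library, and Hes1 in pericyte-like cells at 4.71 and 5.10. All these intervals overlapped.

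Over the barcodes found in both libraries Hes1 stood apart from the other 5 genes. Over all 1113 barcodes outside the low-mitochondrial clusters it had 664 UMIs in the old and 786 UMIs in the young library, a log2 ratio of old to young of −0.37, while the other 5 lay between −0.02 and 0.02. The middle 95% of 10409 genes compared lay between −0.10 and 0.12, and only 8 genes (0.0769%), Hes1 included, were at or below Hes1. The other 7 were the gene models Gm10076, Gm10073, Rpl27-ps3 and Gm8186, the mitochondrial gene mt-Atp8, and Nmt1 and Brd9. Hes1 UMIs were fewer in the old library in 153 barcodes, more in 87 and equal in 140. By class the log2 ratio was −0.49 in astrocyte-like (89 UMIs in the old and 116 in the young library), −0.40 in microglia-like (289 and 350), −0.38 in endothelial cell-like (106 and 125), −0.31 in OPC-like (50 and 56) and −0.19 in pericyte-like cells (114 and 118). Because these are the same barcodes, the ratio describes the 2 libraries and not 2 ages, and its source was not tested.

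**Figure D5:**
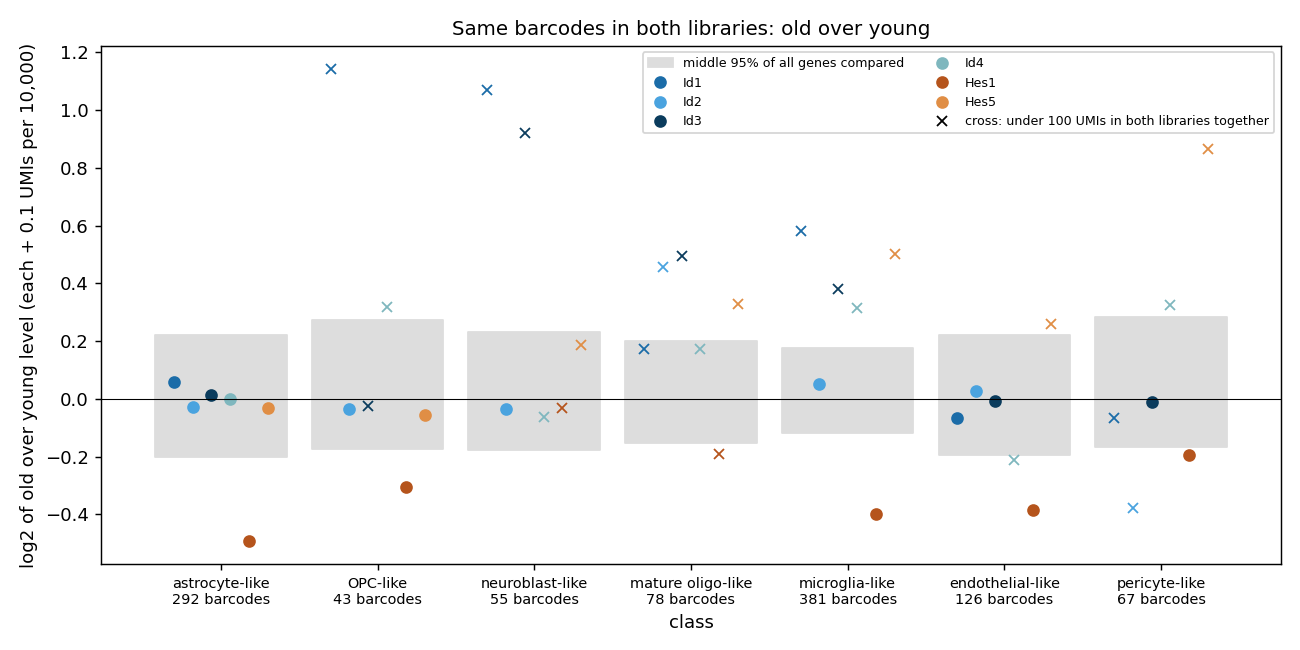
Log2 ratio of the old to the young level of each gene over barcodes present in the same class in both libraries (points; crosses where both libraries together had under 100 UMIs), with 0.1 UMIs per 10,000 added to each level; grey bands are the middle 95% of all genes compared in the class. Hes1 lies below the band in the 5 classes where it is drawn as a point, from −0.49 in astrocyte-like to −0.19 in pericyte-like cells.

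The genes near 0 in microglia-like cells had more UMIs in the old library for the same barcodes. In 381 microglia-like barcodes Id1 had 23 UMIs in the old and 4 in the young library, Hes5 had 20 and 4, Id3 had 42 and 22, and Id4 had 40 and 23. The markers of most other classes moved with them in all cells of the class. The 10 endothelial markers had 333 UMIs in the old and 142 in the young library (1.01 and 0.473 per 10,000). The 10 astrocyte markers had 1430 and 1083 (4.34 and 3.61), with none of either list at 0. Mature oligodendrocyte, pericyte and OPC markers were also higher in the old library. The neuroblast markers were not, at 3.52 in the old and 3.59 in the young library. The part of these marker shifts in the result was not tested.

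The low-mitochondrial clusters, the rest of the young library, held most UMIs of 4 of the 6 genes. They had 83.7% of the young library's Id2 UMIs, 83.3% of Id3, 78.5% of Id4 and 75.3% of Hes1, and 42.8% of Hes5 and 12% of Id1. In all other cells together Id1 was at 1.78 UMIs per 10,000 and in the low-mitochondrial clusters at 0.161, Hes5 at 0.872 and 0.432. The direction was opposite for Id2 (2.61 and 8.90), Id3 (2.67 and 8.83), Id4 (1.45 and 3.52) and Hes1 (1.26 and 2.55). Over the 8 low-mitochondrial clusters Id2 ranged from 2.63 to 15.3 and Hes1 from 0.121 to 4.79. Since these cells carry no class here, their values enter no comparison between classes.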

How the data were processed

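Single cells of the dentate gyrus were profiled in 1 old and 1 young library of the 10x Genomics 3' kit, per the labels' protocols. Reads were processed with Cell Ranger 5.0.0 on mm10, per the submitters' processing notes. Neither the annotation nor the strand setting and cell filter is given in the sources used here. The deposited table holds 3893 cells. The authors had scaled each cell to 10,000 UMIs and taken the natural log of 1 plus that value, as deposited; this is known from the numbers, since no label names the unit: undoing the log gave a sum of 10000 in each cell. Whole UMIs were recovered for 100% of 7332863 values above 0 (tolerance 0.01) and were used for all sums.

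The genes and lists were chosen with earlier results of these data known. Both libraries were clustered together with scanpy 1.11.5 (python 3.11.15, numpy 2.4.6, scipy 1.17.1, pandas 2.3.3, igraph 0.11.9): 2000 variable genes, 30 components, 15 neighbours, Leiden resolution 1. Classes needed 3 markers, each found in 25% of the cluster and 4-fold above other cells. Scrublet called 18 old cells (1.26%) and 34 young cells (1.38%) as doublets, which were kept. A level is the summed UMIs per 10,000 of a class with an exact Poisson interval, and a share has a Clopper-Pearson interval. Depth was a median of 3856 UMIs in old and 6663 in young cells. A count of 0 was given the limit that 3 counts allow. Folds used a pseudocount of 0.1, the equal-weight mean of the other classes with at least 30 cells, and genes with at least 50 UMIs. The fold rule was tested on simulated data. Named besides the 6 genes were the 3 genes most like each (at least 100 UMIs), and up to 4 genes of each list above in a class that led for a member; 1 listed gene is not reported here. Splits by Dcx and Hopx, the finer clusters and the genes below Hes1 between libraries were chosen after the values were seen. RefSeq (GRCm38.p6) had promoters for 4 of the 6 genes. Figures were drawn with matplotlib 3.10.9.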

Additional observations from a re-analysis of the deposited data

How the results depend on the processing

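No class lost its lead for any of the 6 genes in 48 checks over 8 settings, and 43 of the 48 levels moved by less than their counting interval. Hes1 in its leading class was 3.95 UMIs per 10,000 at resolution 0.5 and when the 6 genes and all pathway genes were left out of clustering, where smooth muscle-like cells joined the pericyte-like cells. As a mean over cells the levels were 16.3 for Id3, 8.19 for Id4 and 5.27 for Hes5. The 8 gene and class pairs became 5 at 4-fold and 3 when 2-fold above every other class was required. They were 9 as a mean over cells, which added Hes1 in endothelial cell-like cells, and 10 against all other cells pooled, which also added Id3 in astrocyte-like cells. The count of pathway gene and class pairs above, 51 over all lists, was 24 with a pseudocount of 1. No share over all genes is given for that pseudocount. Thinning lowered the leading shares to 81.3% (Id1), 45.6% (Id2), 71.5% (Id3), 50.2% (Id4), 33.8% (Hes1) and 34.0% (Hes5). Without thinning, Id1 with Id3 were together in 87.6% of endothelial cell-like cells, Id2 with Id4 in 45.7% of astrocyte-like cells and Hes1 with Hes5 in 35.4% of OPC-like cells. The remaining settings, among them doublets left out, cells under 1000 UMIs left out, shared barcodes only and old-library cells, moved no level or count of pairs beyond these limits. No paired test between the ages was possible because each age has 1 library, so there are no replicates to pair; the ratios over shared barcodes set 2 tables of mostly the same cells side by side. Depth limits what counts near 0 can show, and every interval leaves out variation between animals.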
